A study of Drosophila melanogaster with 4 samples.

Results

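DNA has to be copied once and parted once in each round of division, and the proteins that do this work make up one of the most conserved gene sets of animal cells. The levels of 38 such genes were followed in the cone cells (CCs, or Semper cells) of the Drosophila eye, which secrete the lens and surround the photoreceptors (PRs). The 38 genes were a list of textbook members drawn up by name, 18 for DNA replication, 18 for mitosis and 2 for leaving the cell cycle, and all 38 were found among the 14935 genes of the deposited table. In the table PCNA is listed as mus209, and fzr is listed as rap and was matched by its FlyBase identifier, FBgn0262699.

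The study profiled what CCs express as they mature, next to the PRs of the adult. There were 4 RNA libraries, for CCs of the larva, the pupa and the adult and for PRs of the adult, each made from the eyes of 45 to 75 animals. The counts per gene were scaled between libraries by TMM (trimmed mean of M-values) and deposited as log2 values, so that 1 unit below is 1 normalised read and a listed 0 stands for 1 normalised read or less. The libraries summed to 1479271 units for larval CCs, 1827553 for pupal CCs, 3253648 for adult CCs and 2653155 for PRs, and genes above 0 numbered from 8997 in PRs to 12649 in pupal CCs. With the 1 library per group used here, differences were not checked against replicates and neither an SD nor a p-value is given. The paper also describes another library of adult CCs, which was not used here. No correction for gene length was made, and levels are compared between genes only where a length is given.

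Larval CCs came from wandering larvae and pupal CCs from pupae at 25 h after puparium formation, both from sev-; prosPSG-GFP; TM2/TM6B animals, in which R7 photoreceptors are missing, and both were sorted by the GFP that the prosPSG enhancer drives. Adult CCs came from yw67; sp/CyO; TM2/TM6B flies of 1 to 2 days, whose retinas were stained for Fas3, an adhesion protein of CCs, and with 22C10, which labels PRs and bristles. Adult PRs, of the same age, were taken from prosPSG-GFP retinas as the cells with RFP and without GFP, the RFP being driven by 3xP3, an artificial promoter active in PRs. Stage alone is the labelled difference between larval and pupal CCs, whereas adult CCs differ from pupal CCs in stage, genotype and sort, and from adult PRs in cell type, genotype and sort, and these cannot be told apart.

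The CC label was checked against its markers. The transcription factor genes pros, ct and sv had larval log2 levels of 10.43, 9.64 and 8.39 and pupal ones of 9.72, 11.58 and 8.99. Adult CCs had ct and sv at 12.80 and 13.62, and pros at 4.28. The main opsin gene ninaE had 0 listed at both younger stages and log2 levels of 1.39 and 17.37 in adult CCs and PRs. All 15 photoreceptor markers were called lower in adult CCs than in PRs, but not all were at 0 in CCs. norpA, a phospholipase of the light response, was at log2 levels of 8.73, 8.92, 10.52 and 15.38 in larval, pupal and adult CCs and PRs, inaC, a protein kinase C of the same pathway, was at 6.03, 6.39, 5.78 and 12.30, and ninaC, a myosin of PRs, was at 0.84, 7.04, 7.82 and 15.25. Arr2, an arrestin, had 0 listed at both younger stages, with 7.92 and 15.42 in the adult CC and PR libraries. The PR library in turn held CC markers, with retinin, sv, eya and ct at log2 levels of 11.75, 9.32, 8.89 and 8.11. Of 9 cone cell and lens genes, 7 were called higher in adult CCs than in PRs and 0 lower, beside 9.31% and 4.91% of all genes. None of 5 housekeeping genes differed 4-fold in any comparison.

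As background, a cell commits to division when a cyclin D kinase and then a cyclin E kinase release the E2F and Dp transcription factors from the retinoblastoma repressors. Origins of replication are marked by the origin recognition complex, loaded with the ring-shaped Mcm helicase and fired, and the sliding clamp PCNA then holds the polymerases on DNA. Mitotic cyclins, the phosphatase String and the kinase Polo drive entry into mitosis, the anaphase promoting complex ends it, and kinesins and anillin take part in dividing the cell body. In the larval eye disc most cells pause in G1 in the morphogenetic furrow, a subset divides once more behind it, and CCs are recruited from the cells that follow that division and are not known to divide afterwards.

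A gene was called higher or lower where the difference in log2(value + 4) between libraries was 2 or more, a 4-fold difference, and the higher library had at least 32 units. The larval, pupal and adult libraries below are those of CCs unless PRs are named. Differences are always on this scale, and it understates the change of genes with low values. The genes and the lists beside them were drawn up when earlier results of these data were known.

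Larval CCs held the highest level of 35 of the 38 genes, and 24 of the 38 were called lower in pupal CCs. Over the whole table, 14.2% of the genes above 0 in any library were highest in larval CCs (34.4% in the pupal, 33.1% in the adult CC and 18.2% in the PR library), and 1.07% of all genes were called lower in the pupal than in the larval library. The step from larval to pupal CCs is called the first step below, and that from pupal to adult CCs the second. None of the 38 was called higher in pupal CCs, whereas 4.64% of all genes were. The median difference of the 38 genes was -2.37, against 0.35 over all genes. The 24 genes made up 15% of the 160 genes of the table that were called lower at this step. Among the 6171 genes with 32 units or more in either of these libraries, 2.59% were called lower and 11.2% higher. With an 8-fold in place of the 4-fold rule, 8 of the 38 were called lower, beside 0.288% of all genes. The 18 replication genes had 12 called lower with a median of -2.61, the 18 mitosis genes had 11 with a median of -2.27, and of the exit genes dap was called lower and fzr was not.

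**Figure D1:**
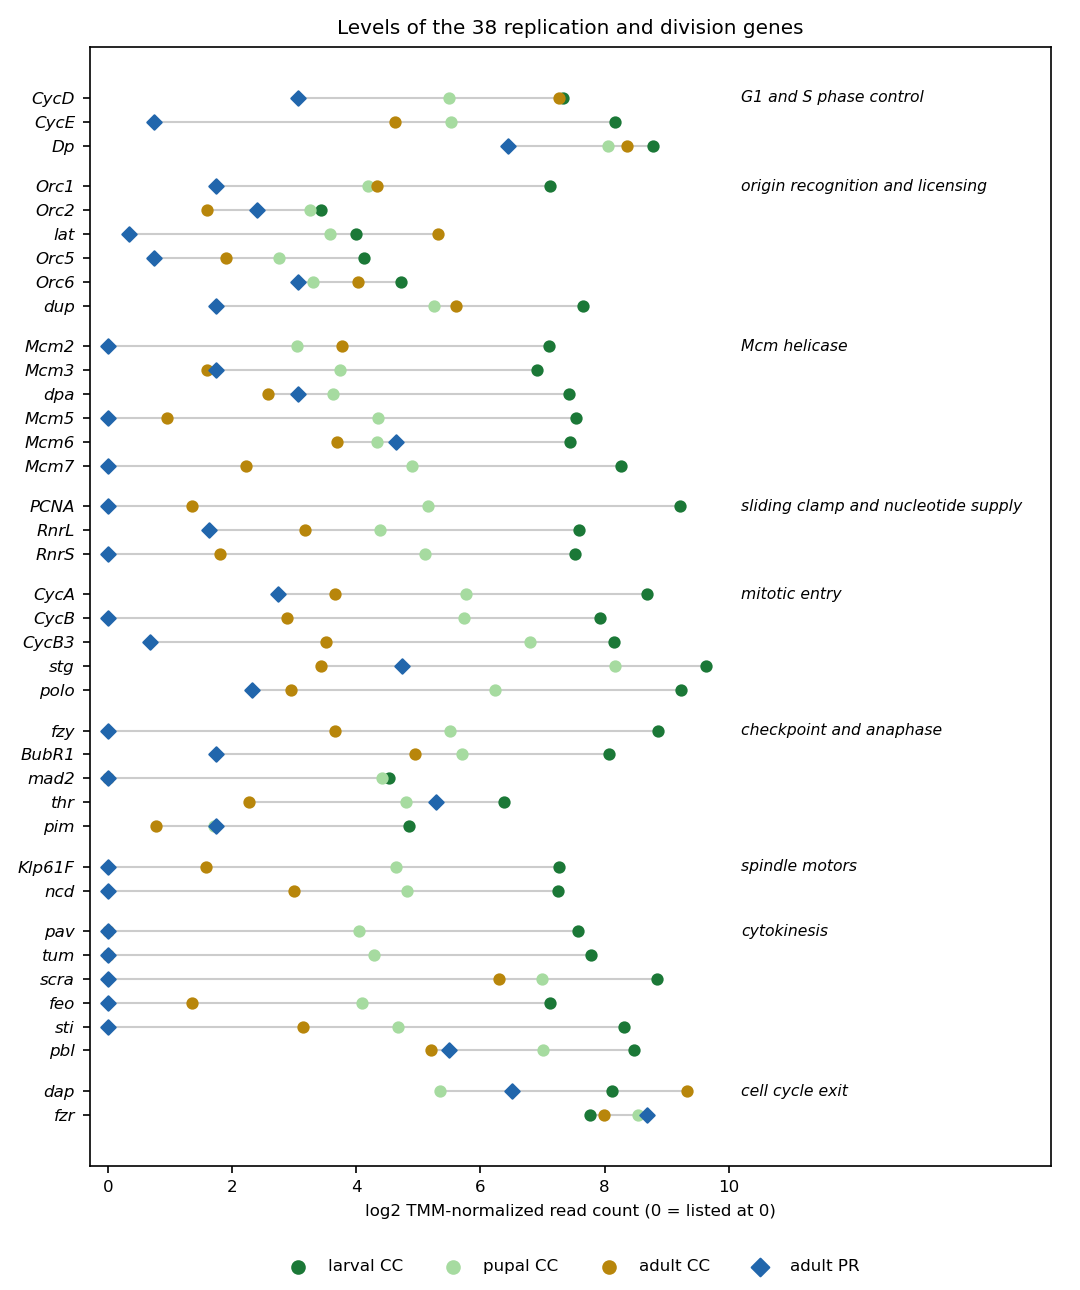
Levels of the 38 genes, with a row per gene, the log2 TMM-normalised read count on the horizontal axis (0 for a gene listed at 0), circles for larval, pupal and adult CCs and diamonds for adult PRs, 1 library each. The dark green larval points lie farthest to the right in 35 rows, the exceptions being lat, dap and fzr, and adult CC points at 0 (mad2, pav and tum) lie beneath the diamonds.

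The Mcm2 to Mcm7 genes encode the 6 subunits of the replicative helicase, the ring that unwinds DNA ahead of the fork. All 6 were called lower in pupal than in larval CCs, by differences that spanned only -3.54 to -2.84. Mcm2 had log2 levels of 7.11 in the larval, 3.04 in the pupal and 3.77 in the adult library, with 0 listed in PRs. For Mcm7 the log2 levels were 8.26, 4.89 and 2.23 in larval, pupal and adult CCs, with 0 listed in PRs. The larval library was thus high and the other 3 were low for both. Mcm3 (6.91, 3.73, 1.60 and 1.73 in larval, pupal and adult CCs and PRs), dpa, which encodes Mcm4 (7.42, 3.63, 2.58 and 3.05), and Mcm5 (7.54, 4.34, 0.95 and 0) had CC levels in the order of larva, pupa and adult, with the larva highest. Mcm6 did so as well, at 7.44, 4.33 and 3.68, and had a log2 level of 4.64 in PRs, above its level in pupal and adult CCs.

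Since the helicase holds 1 copy of each subunit, its genes can be set side by side per length of annotated exon. Per kilobase of exon, the 6 genes lay between 43.7 units (Mcm3) and 125 units (Mcm7) in larval CCs and between 2.84 and 12.1 units in pupal CCs, with Mcm2 lowest and Mcm7 highest. The sum of the 6 genes was 1097 units in the larval, 104 in the pupal and 42.1 in the adult CC library and 36.5 in PRs, so that the pupal sum was 9.49% of the larval one. In the annotation, 81.7% of the exon bases of Mcm7 are also covered by an antisense RNA gene on the opposite strand, asRNA:CR45871. Strand is not stated for these counts, so reads of the overlapping genes cannot be told apart, and the level of Mcm7 is uncertain.

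PCNA, the sliding clamp, showed the lowest difference of the 38 genes between pupal and larval CCs. Its log2 levels were 9.21 in the larval, 5.16 in the pupal and 1.36 in the adult library, and it was listed at 0 in PRs. In units this was 591, 35.7 and 2.56, so the pupal value was 6.04% of the larval one and the adult value 0.433%. The difference of -3.91 was the eighth lowest of all 14935 genes, and Mcm2 stood at the tenth place. RnrL and RnrS, the large and small subunits of the ribonucleotide reductase that supplies deoxynucleotides, stood at larval log2 levels of 7.58 and 7.53 and pupal ones of 4.37 and 5.11. Adult CCs had RnrL and RnrS at 3.17 and 1.81, and PRs at 1.63 and 0. PCNA and both reductase genes were called lower at the first step, and PCNA and RnrS were called lower again in adult than in pupal CCs.

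The genes that act before the fork is built were less uniform. CycE, the cyclin that drives entry into S phase, had log2 levels of 8.17, 5.52, 4.61 and 0.73 in larval, pupal and adult CCs and PRs, and was called lower at the first step with a difference of -2.55. CycD, the G1 cyclin, which in flies also promotes growth, had log2 levels of 7.32 in the larval, 5.49 in the pupal and 7.26 in the adult CC library and 3.05 in PRs. Its larval and adult CC levels were thus nearly equal, and its differences of -1.74 at the first step and 1.69 at the second passed the rule in neither. Dp, the partner of E2F, varied little between the stages at log2 levels of 8.77, 8.05 and 8.37, and was at 6.44 in PRs.

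Of the genes for origin recognition and licensing, Orc1 and dup were called lower in pupal than in larval CCs. Orc1, the subunit of the origin recognition complex whose amount is cell cycle regulated in flies, had log2 levels of 7.12, 4.19, 4.33 and 1.73 in larval, pupal and adult CCs and PRs. The levels of dup, the fly Cdt1 that brings the Mcm ring to origins, were 7.66, 5.25, 5.60 and 1.73 on the log2 scale. Both were high in larval CCs alone, and their pupal and adult CC levels were close to each other. Orc2, lat (the fly Orc3), Orc5 and Orc6 had lower levels even in larval CCs, at 3.43, 3.99, 4.13 and 4.72 on the log2 scale, which are below 32 units. None of these 4 was called in any comparison of CC stages. For Orc2, Orc5 and Orc6 the pupal log2 levels were 3.25, 2.76 and 3.30, the adult CC levels 1.59, 1.90 and 4.02, and the PR levels 2.39, 0.73 and 3.05. lat was the one replication gene whose highest level was in adult CCs, at 5.31 against 3.57 in the pupal library and 0.34 in PRs, and its difference of 1.46 at the second step did not pass the rule. The annotation places the exons of lat wholly within those of CG34315 on the same strand, so that its counts are uncertain.

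**Figure D2:**
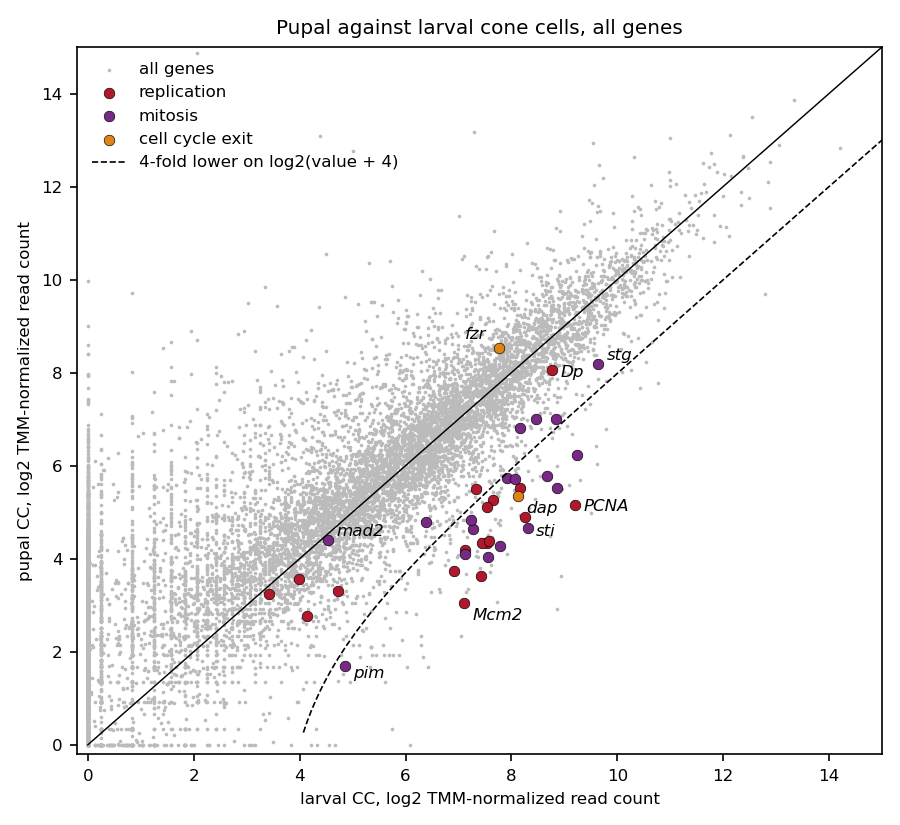
Pupal against larval CCs over all 14935 genes, where the axes are log2 TMM-normalised read counts in the larval (horizontal) and pupal (vertical) CC library, grey points are all genes, coloured points are the 38 genes, the solid line marks equal levels and the dashed line marks 4-fold lower on log2(value + 4). Most coloured points lie at or below the dashed line, with PCNA at 9.21 and 5.16 and Mcm2 at 7.11 and 3.04, whereas fzr lies above the solid line.

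All 18 mitosis genes had their CC levels in the same order, highest in the larva and lowest in the adult. Levels in this order were found for 29 of the 38 genes, among them 11 of the 18 replication genes, and for 10.7% of all genes. This order is a description of 3 libraries and takes no account of the size of each step.

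Among the genes for entry into mitosis, stg encodes the String (Cdc25) phosphatase that triggers it by activating Cdk1. Its log2 levels were 9.64 in the larval, 8.18 in the pupal and 3.44 in the adult CC library and 4.73 in PRs. It was high in both larval and pupal CCs and low in the adult cells, with a difference of -1.45 at the first step, which did not pass the rule, and of -4.30 at the second, the largest of the 38 genes there. CycB3, a B-type cyclin, behaved likewise with log2 levels of 8.16, 6.80, 3.51 and 0.67 in larval, pupal and adult CCs and PRs and differences of -1.32 and -2.91. These were the only genes of the 38 that were called lower at the second step alone.

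CycA, CycB and polo were called lower at the first step already. CycA, the cyclin needed in flies for entry into mitosis, had log2 levels of 8.68, 5.77, 3.66 and 2.73 in larval, pupal and adult CCs and PRs. The log2 levels of CycB, the main mitotic cyclin, were 7.92, 5.73 and 2.88 in the 3 CC stages, with 0 listed in PRs. For polo, the kinase of spindle poles and kinetochores, they were 9.23, 6.24, 2.94 and 2.32. CycB and polo were called lower at the second step too, by -2.33 and -2.76, and CycA was not, at -1.82. Summed over the 5 entry genes, the larval library had 2336 units, the pupal one 584, the adult one 49.9 and that of PRs 39.8.

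Of the genes that hold and release anaphase, fzy encodes the Cdc20 activator of the anaphase promoting complex. Its log2 levels were 8.86 in the larval, 5.51 in the pupal and 3.66 in the adult library, with 0 listed in PRs, and its difference of -3.24 at the first step was among the 30 lowest of the table. BubR1, a kinase-related protein of the spindle checkpoint, was called lower as well, with log2 levels of 8.07, 5.71, 4.95 and 1.73 in larval, pupal and adult CCs and PRs. The larval library was the highest for both. The other 3 had fewer reads. mad2, also of the checkpoint, stood at 4.53 in the larval and 4.41 in the pupal library and was listed at 0 in both adult libraries. pim, the fly securin that keeps sister chromatids joined, had a difference of -2.18 at the first step, between log2 levels of 4.85 and 1.70, but had less than 32 units and so was not called, and it was at 0.77 in adult CCs and 1.73 in PRs. thr, a subunit that works with separase in flies, was at 6.38, 4.80 and 2.27 in the 3 CC stages and, unlike the rest, at 5.28 in PRs.

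The spindle motors Klp61F, a kinesin that slides antiparallel microtubules apart, and ncd, a minus-end directed kinesin, were both called lower at the first step. Klp61F had log2 levels of 7.27, 4.65 and 1.58 in larval, pupal and adult CCs, and ncd of 7.25, 4.82 and 2.99. Both were listed at 0 in PRs. Together they had 306 units in larval CCs and 10.9 in adult CCs.

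Cytokinesis genes divided into 4 that were called lower at the first step and 2 that were not. pav and tum encode the kinesin and its partner in centralspindlin, the complex at the midzone where the cell is cleaved. pav had log2 levels of 7.57 and 4.04 in larval and pupal CCs, and tum of 7.79 and 4.28, and both were listed at 0 in adult CCs and in PRs. sti, the fly citron kinase, and feo, a microtubule bundler of the midzone, were called lower likewise. Their log2 levels in larval, pupal and adult CCs were 8.31, 4.66 and 3.13 for sti and 7.13, 4.10 and 1.36 for feo, with 0 listed in PRs for both. The remaining pair acts at the cell cortex, where anillin (scra) scaffolds actin and septins and pbl, the fly Ect2, is needed for the cleavage furrow. scra stood at 8.84, 6.99 and 6.29 in the 3 CC stages and pbl at 8.47, 7.00 and 5.20, and their first-step differences of -1.82 and -1.44 did not pass the rule. In PRs scra was listed at 0 and pbl was at 5.49, above its level in adult CCs.

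The genes for leaving the cell cycle had orders of their own. dap encodes Dacapo, the fly member of the p21 and p27 family, which binds and blocks the CycE kinase. Its log2 levels were 8.12 in the larval, 5.34 in the pupal and 9.33 in the adult CC library and 6.51 in PRs. The level was thus high in larval and in adult CCs and low between them, and dap was called lower at the first step, with a difference of -2.66, and higher at the second, with 3.86. It was the only one of the 38 called higher in adult than in pupal CCs, whereas 6.47% of all genes were (14.3% of those with 32 units or more in either library). The adult CC value of 643 units was 231% of the larval one, and the difference of 1.20 between them did not pass the rule.

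fzr encodes Fizzy-related, the fly Cdh1, which keeps the anaphase promoting complex active in G1 and in cells that have stopped dividing. Its log2 levels were 7.76, 8.54 and 7.99 in larval, pupal and adult CCs and 8.68 in PRs. All 4 libraries lay close together, and its differences ran from -0.68 between adult CCs and PRs to 0.77 between pupal and larval CCs. It was the only one of the 38 whose level was higher in pupal than in larval CCs.

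**Figure D3:**
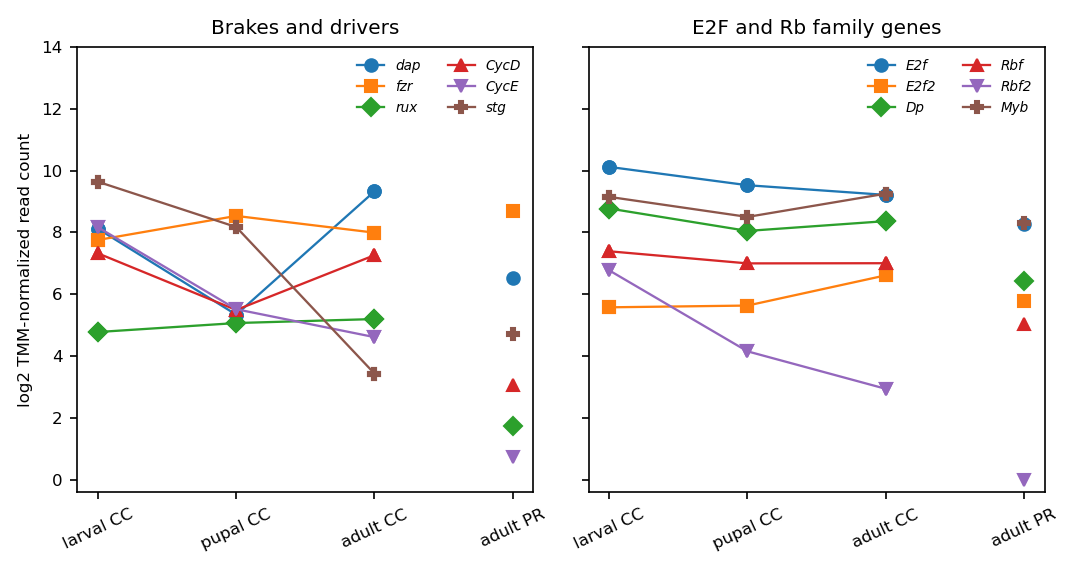
Levels of regulators by stage, where the vertical axis is the log2 TMM-normalised read count, lines join the larval, pupal and adult CC libraries, and the unjoined points are adult PRs, with 1 library per point. The left panel has dap going from 8.12 through 5.34 to 9.33, fzr staying between 7.76 and 8.54, and stg going from 9.64 to 3.44, and the right panel has E2f, Dp, Rbf and Myb on nearly level lines beside Rbf2.

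Between pupal and adult CCs, 6 of the 38 genes were called lower, PCNA, RnrS, CycB, CycB3, stg and polo. This was 15.8% of the 38, beside 6.11% of all genes and 13.5% of those with 32 units or more in either library. The median difference was -1.25, against 0.00 over all genes, and was -0.62 for the replication genes and -1.84 for the mitosis genes. Over both steps, 27 genes were called lower in adult than in larval CCs and none was called higher, whereas 4.45% and 9.01% of all genes were (10.3% and 20.9% of those with 32 units or more in either library). Mitosis genes made up 16 of the 27. The median from larva to adult was -3.55, against 0.16 over all genes. By step, 20 genes were called lower at the first only, 2 at the second only, 4 at both and 12 at neither. The scaling of adult CCs bears on these counts. With equal library totals the median difference of all genes with 32 units or more shifted by -0.80 at the second step, and 12 members were called lower in place of 6, beside 10.5% of all genes. With an added constant of 16 units, 2 were called lower, stg and CycB3, beside 3.99% of all genes.

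**Figure D4:**
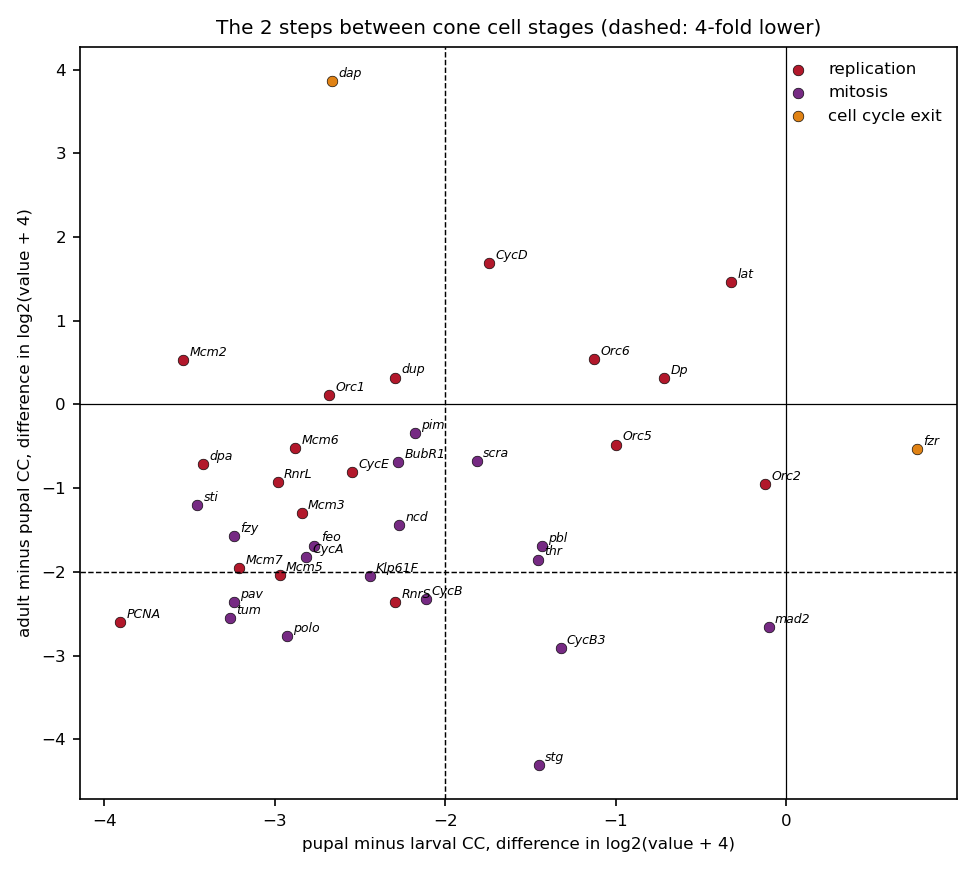
Differences of the 38 genes at the 2 steps between CC stages, where the horizontal axis is pupal minus larval and the vertical axis adult minus pupal, both as differences in log2(value + 4), each point is a gene, and dashed lines mark 4-fold lower. The genes stg (-1.45 and -4.30), CycB3 (-1.32 and -2.91) and dap (-2.66 and 3.86) lie apart from the others, and mad2, pav, tum, Klp61F and Mcm5 lie below the lower dashed line but had less than 32 units in pupal CCs and were not called.

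Summed over genes, the replication members had 3362 units in the larval, 645 in the pupal and 697 in the adult CC library and 160 in PRs. The adult CC sum was not below the pupal one, and CycD, Dp and lat had 154, 330 and 39.6 units in adult CCs against 45.0, 265 and 11.9 in the pupal library. The mitosis members had 5191, 1121, 237 and 130 units in the same order of libraries. As a share of the larval sum, the adult CC sums were 20.7% for replication and 4.57% for mitosis. By role, they were 57.4% for G1 and S phase control, 31.9% for origin recognition and licensing, 3.84% for the helicase, 1.56% for the clamp and nucleotide supply, 2.13% for mitotic entry, 5.75% for checkpoint and anaphase, 3.57% for spindle motors and 7.53% for cytokinesis. The exit genes stood at 182%, with dap making up most of it.

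**Figure D5:**
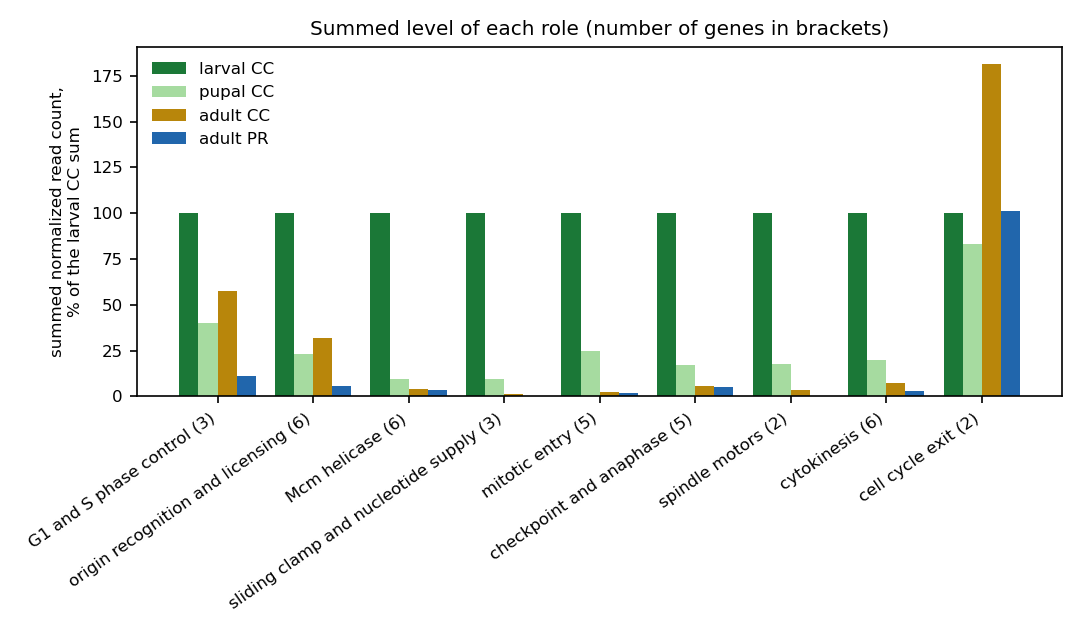
Summed normalised read count of the genes of each role, as a percentage of the larval CC sum, where groups of bars are roles with the number of genes in brackets, and bars are larval, pupal and adult CCs and adult PRs, 1 library each. Pupal bars run from 9.40% for the clamp and nucleotide supply to 40.2% for G1 and S phase control among the replication and mitosis roles, and the exit genes reach 182% in adult CCs.

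The adult cells were set beside each other last. Of the 38 genes, 5 were called higher in adult CCs than in PRs, beside 9.31% of all genes (21.9% of those with 32 units or more in either library), and 1 was called lower, beside 4.91% (11.5%). The share of the members called higher was 13.2%, between these backgrounds. The 5 were CycD (3.68), lat (3.05), dup (2.84), scra (4.36) and dap (2.76), and the lower one was thr (-2.29). scra stood out, with 0 listed in PRs against a log2 level of 6.29. Most other members were at low levels in both, since 8 of the 38 genes reached 32 units in adult CCs and 5 in PRs. At 0 were 3 genes in adult CCs and 15 in PRs, with none in larval or pupal CCs. In PRs the low values lay mostly at multiples of 1.66 units, an estimate of what 1 read was worth there, by which 31 of the 38 genes had fewer than 10 reads. The same estimate gave 0.597 units per read in the larval, 0.634 in the pupal and 0.854 in the adult library, with 0, 1 and 18 genes under 10 reads. A difference between adult CCs and PRs was therefore not detectable for most of the replication and mitosis genes at this depth. Without the floor 9 were called higher, beside 12.6% of all genes, and with 16 units added 3, beside 6.16%. lat was no longer called with either other scaling, equal totals or equal medians.

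Other genes of the same pathways were taken from lists of textbook members. Of 25 further genes of the replication fork and of origin firing, 2 (8%) were called lower at the first step and none higher, with a median of -1.05, beside 1.07% of all genes and 2.59% of those with 32 units or more in either library. They were DNApol-alpha60, of the polymerase and primase complex that starts each strand, whose log2 levels were 5.68, 1.93, 0 and 0 in larval, pupal and adult CCs and PRs, and Cdc6, which loads the helicase with dup, at 6.74, 3.87, 4.23 and 4.21. From larva to adult CC, 9 of the 25 (36%) were called lower, beside 4.45% of all genes and 10.3% of those with 32 units or more, among them the polymerase subunit DNApol-alpha180 (-2.97), the clamp loader subunit RfC3 (-3.15) and the helicase cofactor CDC45L (-2.81), and none was called higher. geminin, the inhibitor of dup, was called lower over both steps as well (-2.26) and had log2 levels of 7.80, 6.53, 5.44 and 2.32.

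Of 43 further mitosis genes, 10 (23.3%) were called lower at the first step and none higher, with a median of -1.15, beside the same 1.07% and 2.59%. cdc2, which encodes Cdk1, the kinase that the mitotic cyclins activate, had log2 levels of 7.74, 4.77, 4.23 and 3.32 in larval, pupal and adult CCs and PRs. Incenp, the scaffold of the chromosomal passenger complex, had levels of 8.17 and 4.94 in larval and pupal CCs and was listed at 0 in both adult libraries. asp, a protein of spindle poles, was at 8.45, 5.29 and 2.98 in the CC stages and at 0 in PRs. These 3 genes thus had the same order as the mitosis members. Klp67A, a kinesin that sets spindle length, was called lower at both steps (-2.22 and -3.60), at log2 levels of 8.48, 6.20 and 1.25. From larva to adult CC, 20 of the 43 (46.5%) were called lower and none higher, with a median of -1.99, beside 4.45% and 10.3%. At the first step the medians of both pathway lists were closer to 0 than that of the members, -2.37. However, 18 of the 25 and 31 of the 43 had 32 units or more in either library, against 32 of the 38 members. The scale understates changes of low values, so these medians are not on like terms.

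Of 10 genes of the E2F, Rb and dREAM group, which repress or activate division genes, 1 was called lower at the first step and none higher, with a median of -0.62, where 1.07% of all genes and 2.59% of those with 32 units or more were called lower. It was Rbf2, a retinoblastoma family gene, at log2 levels of 6.77, 4.15 and 2.94 in larval, pupal and adult CCs and 0 in PRs. Caf1, the histone-binding subunit of several chromatin complexes, was called lower from larva to adult CC (-3.22), at 9.02, 7.67, 5.70 and 2.73. Of genes named here after their values were seen, E2f, the activating E2F, had log2 levels of 10.12, 9.53, 9.22 and 8.26, and Rbf, the main retinoblastoma gene, of 7.39, 7.00, 7.01 and 5.04. Neither was called in any comparison. Myb, an activator of the same complex, was at 9.15, 8.50, 9.25 and 8.32 and was not called either, but its exons are overlapped by CG15914 and CG46440. Bases that both overlap were counted for each gene, so the share of its exons covered is not known. None of 11 other genes listed as brakes on the cell cycle was called at the first step, with a median of 0.06, and few genes of any kind were called lower there. The list also holds Rca1, which is not itself a brake and was called in no comparison, and counts without it were not made.

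Markers of other cells that the larval and pupal sorts could hold were read in the same libraries. Neuroblasts, the dividing stem cells of the brain, also express pros, the gene whose eye enhancer, prosPSG, drove the GFP. The paper reports that this enhancer is active in CCs and R7 cells, with little or none of its expression in the optic lobe. The supplementary head sections it gives for the optic lobe are from adults. The paper also lists dpn among factors that larval and pupal CCs express for a time, from these same libraries. Of 10 neuroblast genes, some of which were put on the list after their values had been seen, 6 were called lower at the first step and none higher, with a median of -2.05, beside 1.07% of all genes and 2.59% of those with 32 units or more. Among these dpn had log2 levels of 8.72, 4.50, 0.77 and 0 in larval, pupal and adult CCs and PRs, wor of 8.94, 3.63, 3.09 and 0, ase of 8.06, 5.91, 3.47 and 0, and mira of 7.15, 3.67, 4.63 and 4.19. The other called genes were nerfin-1, at 10.43, 7.66, 3.86 and 0, and klu, at 8.78, 6.73, 6.60 and 4.19. The 4 that were not called at the first step were insc (5.95, 4.48, 4.92 and 2.37), brat (10.65, 10.97, 7.71 and 7.35), l(1)sc (3.16, 3.92, 0.77 and 0) and grh (9.18, 8.07, 10.59 and 7.51), so that brat and l(1)sc were not below their larval levels in pupal CCs, and grh was called higher at the second step. Their summed level was 5397 units in the larval, 2732 in the pupal and 1937 in the adult CC library and 387 in PRs, and 9 of the 10 had 32 units or more in larval CCs, while 5 were listed at 0 in PRs. Of these sums, brat made up 2009 units in the pupal and grh 1538 in the adult library. dpn, wor, ase, nerfin-1 and klu thus had the same order over the CC stages as the mitosis genes, whereas mira, insc, brat, l(1)sc and grh did not. For dpn 59.3% of the exon bases are overlapped by an antisense RNA gene. The brain was removed in the dissection, and the part of neuroblasts in the division genes was not tested. Fewer cells of a type and less RNA per cell cannot be told apart in such bulk libraries.

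No gene of the other marker lists was called lower at the first step, beside 1.07% of all genes. Of 9 genes of undivided eye disc precursors none was called between pupal and larval CCs. Their median was -0.04, with 5 differences below 0 and 4 above it. ey and hth had larval log2 levels of 8.09 and 10.33 and pupal ones of 7.99 and 9.47. toy and tsh went the other way, with larval levels of 8.51 and 6.03 and pupal ones of 9.11 and 6.81. For hemocytes 2 of 7 genes and for optic lobe glia 3 of 8 genes were called higher in pupal CCs and none lower, beside 4.64% of all genes and 11.2% of those with 32 units or more called higher. The glial list includes repo, gcm, wrapper and Eaat1, which the paper reports as expressed in CCs themselves. It therefore does not mark optic lobe glia alone. Hml, a hemocyte gene, had log2 levels of 1.26 and 6.68 in larval and pupal CCs, and He, which defines hemocytes too, was listed at 0 in every library. Of 5 genes of the peripodial layer and eye margin none was called at this step, and of 7 genes of the bristle lineage 1 was called higher. The summed levels of hemocyte genes were 131 units in the larval and 495 in the pupal library. Those of glial genes were 191 and 354, and those of bristle genes 617 and 820. For the precursor genes the sums were 2461 and 1954 units, and for the peripodial and margin genes 235 and 217, higher in the larval library. The part of these cells in the division genes was not tested.

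Read per kilobase of annotated exon, the members with the highest values in larval CCs were PCNA (553 units), stg (260), fzy (233) and polo (202), and those with the lowest were lat (4.79) and Orc2 (5.39). In adult CCs the highest were dap (254), Dp (103), fzr (91.4) and CycD (62.6). Of the 18 mitosis members in adult CCs, scra was the highest per kilobase at 17.6 units. Of the 38 genes, 16 have exons that overlap those of another gene in the annotation, and apart from lat and Mcm7 the overlap covers at most 15.3% of the exon bases, the value for ncd.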

How the data were processed

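According to the paper and the submitters' processing notes, reads were aligned to the dm3 genome (TopHat2 2.0 and Bowtie 1.0), counted per gene, TMM-normalised together with whole-animal data by the authors, and deposited as log2 values, in which 1 unit or less appears as 0. RNA had been amplified before library preparation, and strand is not stated. The table has 14959 entries, and 24 repeats of a gene, all at 0, were left out. Members were matched by symbol (37) or FlyBase identifier (1), and RfC40 and RPA3 of the pathway lists were not matched.

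Levels were compared as log2(value + 4), with no test, since each group has 1 library. A call needs a difference of 2 and 32 units in the higher library. Units per read were estimated from the spacing of values below 30 units, within a tolerance of 0.02 units. From 38.4% to 65.0% of these values lay on the spacing, so whole reads were not recovered and the depth is uncertain. Exon lengths and overlaps came from Ensembl release 115, which is on another build, so no coordinates are given.

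All 38 members are named. For the pathway lists the rule for names was up to 8 genes each past the rule with the largest difference, but the text departs from it. More than 8 of the further mitosis genes are named, and some with large differences, such as gwl and CAP-D2, are not. The rule for names also took every marker with 32 units or more in larval or pupal CCs, of which only a part is named, with markers that a check of labels needs. The members, lists and rule were chosen with earlier results of these data known. Alternatives were added constants of 1 and 16 units, equal totals, equal medians, no floor, a floor of 256 units and an 8-fold rule. Promoter motifs and sequences were not analysed here. Calculations used Python 3.11.15, numpy 2.4.6, pandas 2.3.3 and matplotlib 3.10.9.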

Additional observations from a re-analysis of the deposited data

How the results depend on the processing

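No paired analysis was possible because each group has 1 library. With 1 library per group used here, the spread between separate samples of a stage was not measured, and low values, above all in PRs, rest on few reads. Of 1064 recomputed differences of the 38 genes, 954 kept their direction and their side of the rule, 79 no longer passed it, 31 newly passed it and none of those past the rule turned its direction. Called lower in pupal than larval CCs were 24 genes, against 9 with the higher floor and 8 with an 8-fold rule (Mcm2, dpa, Mcm7, PCNA, fzy, pav, tum and sti). Of all genes, 1.07%, 0.321% and 0.288% were called lower under these settings in turn. Called lower in adult than pupal CCs were 6, against 12 with equal library totals, 11 without a floor, 2 with 16 units added and 1 (stg) with the higher floor or the 8-fold rule. The shares of all genes were 6.11%, 10.5% with equal totals, 7.6% without a floor and 3.99% with 16 units added. They were 1.97% with the higher floor and 3.22% with the 8-fold rule. Called lower in adult than larval CCs were 27, against 12 with the higher floor, beside 4.45% and 1.38% of all genes. The median from larva to adult, -3.55, was -4.18 with 1 unit added, -2.82 with 16 units added and -4.52 with equal totals, which shifted the median of all genes with 32 units or more by -1.09. Called higher in adult CCs than PRs were 5, against 9 without a floor, 3 with 16 units added or with the 8-fold rule and 1 with the higher floor. The shares of all genes were 9.31%, 12.6% without a floor and 6.16% with 16 units added. They were 4.56% with the 8-fold rule and 4.03% with the higher floor. The 1 called lower (thr) became 0 with 16 units added, with the higher floor and with the 8-fold rule. Of all genes, 4.91% were called lower there, and 3.42%, 2.23% and 2.83% under these alternatives in turn. The median of the 38 genes there, 0.76, was 1.83 with 1 unit added. On the main scale the median was 0.33 over all genes and 0.64 over those with 32 units or more. Added constants and the floor act on low values by construction, and the cause of the other changes was not tested. Alternatives for the pathway lists, chosen after seeing the data, moved their counts at the first step from 2 to 0 for fork genes and from 10 to 2 for mitosis genes under the 8-fold rule. Under that rule 0.288% of all genes were called lower at the first step. The search for promoter motifs was not run.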

Other observations

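Checkpoint and brake genes had orders of their own. grp, the fly Chk1 kinase of the DNA replication checkpoint, had log2 levels of 7.63 and 7.74 in the larval and pupal libraries and of 3.72 in adult CCs and 3.65 in PRs, so that both adult libraries were low. It was the only one of the 11 genes listed as brakes called lower in adult than in pupal CCs (-3.66), beside 6.11% of all genes and 13.5% of those with 32 units or more. Its upstream kinase mei-41, the fly ATR, which was named after its values were seen, had levels of 6.18, 6.40, 4.23 and 3.90 on the same scale and did not pass the rule at that step (-1.96). p53 was the only brake called higher in adult than in larval CCs (2.02), and this 1 of 11 (9.09%) was near the background of 9.01% of all genes and 20.9% of those with 32 units or more. It was at log2 levels of 2.52, 3.86, 5.14 and 3.05 in larval, pupal and adult CCs and PRs. Its exons are partly overlapped by an antisense RNA gene, and with 16 units added no brake was called higher, where 6.87% of all genes were.

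Between the adult libraries, rux, an inhibitor of the CycA kinase, and trbl, which lowers String, were called higher in the CC library (2.48 and 2.31). These 2 of 11 (18.2%) lay between the 9.31% of all genes and the 21.9% of those with 32 units or more called higher there. With equal totals or equal medians 0 of the 11 genes listed as brakes were called higher there, beside 6.46% and 5.81% of all genes.

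Of the 43 further mitosis genes, 5 were called higher in adult CCs than in PRs (11.6%, beside the same 9.31% and 21.9%) and 1 was called lower. The 5 were Cenp-C, a protein of the inner kinetochore (3.29), Klp3A, a kinesin of the midzone (3.60), the cyclin E kinase gene cdc2c (2.90), the condensin gene Cap-G (2.87) and the septin gene pnut (2.07). Cenp-C and Klp3A were at 6.08 and 5.47 in adult CCs and at 1.73 and 0 in PRs on the log2 scale. Exons of cdc2c are partly overlapped by a gene on the opposite strand. The lower one, Cks30A, a small subunit of Cdk1, had log2 levels of 6.65, 3.28 and 0.77 in larval, pupal and adult CCs and of 5.81 in PRs, and was called lower in adult CCs than in PRs (-3.40), as was thr (-2.29) among the 38 genes. Klp67A, at 4.58 in PRs against 1.25 in adult CCs, had a difference of -2.13 but less than 32 units in both.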
